A study of Sus scrofa with 4 samples.

Results

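The 29 genes described here act at the G1/S transition and in DNA replication. They were taken as a list of names by function, and all 29 were found among the 26921 gene rows of the deposited tables. The RNA came from cells that the labels call immature spermatogonia, taken from pig testis and grown in culture. There were 2 control libraries, of genotype WT, and 2 libraries of genotype ZBTB16 knockdown, and per the labels' protocols the samples of a group came from independent experiments. ZBTB16, also called PLZF, is a zinc finger repressor of undifferentiated spermatogonia. The study's design text describes lentiviral delivery of a short hairpin RNA against ZBTB16, and what the control cells received was not given in the sources used here. Animal ages, animal numbers and pooling were not given for these libraries either.

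Before S phase, the origin recognition complex, CDC6 and CDT1 load a ring of MCM2 to MCM7 onto DNA, and that ring becomes an active helicase once CDC45 and the GINS complex join it. Polymerases then copy both strands, held in place by the sliding clamp PCNA, which the replication factor C complex opens and closes around DNA. Cyclin E with its kinase and the E2F transcription factors turn on many of these genes in late G1. In the testis, spermatogonia are the germ cells that divide by mitosis, and dividing somatic cells use the same set of genes.

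The libraries held 17283536 and 15983390 counts in control and 18500447 and 16548342 in knockdown, and the 29 genes together made up 0.147% to 0.152% of each. ZBTB16 was measured at 1.77 and 1.76 depth-scaled fragments per kilobase of transcript (FPKM) in control and at 1.37 and 1.34 in knockdown, a log2 fold change of -0.36 (SE 0.109, adjusted p = 0.00338 with edgeR). The call was lost with DESeq2 (0.109) and with limma on FPKM (0.0685 and 0.0719, and 0.124 with medians aligned). The 2 libraries of a group differed little more than by counting noise (chi-square per degree of freedom 1.15 and 1.26), against 25.2 to 27.3 between groups. The groups also differed in mean fragment length as the tables' effective lengths give it (326 and 327 bases in control, 266 and 267 in knockdown) and in the share of counts from mitochondrial genes (4.15% and 4.29% against 5.71% in both knockdown libraries), and ribosomal protein genes made up 3.85% and 3.83% of counts in control and 2.62% and 2.59% in knockdown. Of 16 spermatogonial markers, 12 had a mean of at least 1 FPKM. All 16 summed to 217 to 221 FPKM in control and 187 to 195 in knockdown, and without UCHL1, the most abundant, to 96.5 to 99.7 and 101 to 106, while NANOS2 and LIN28A were near 0 and DDX4 was at 1.86 to 2.3. Of the 14 that were tested 5 rose and 4 fell, ZBTB16 itself among the latter. Somatic markers were abundant in all 4 libraries: 9 Sertoli markers summed to 1590 to 1602 FPKM in control and 1756 to 1760 in knockdown, and 10 peritubular markers to 7572 to 7668 and 7165 to 7285. In the Sertoli sums VIM alone was at 821.6 and 821.5 FPKM in control and at 812 and 791 in knockdown. Of these Sertoli markers 5 rose and 2 fell, and of the peritubular markers 4 rose and 5 fell. Leydig, macrophage and endothelial lists summed to 204 to 207, 35.0 to 38.8 and 10.8 to 12.4 FPKM in control, and to 170 to 181, 24.3 to 27.0 and 9.61 to 10.7 in knockdown. In the Leydig sums CYP11A1 alone was at 162 and 158 FPKM in control and at 144 and 150 in knockdown. STAR, CYP17A1 and LHCGR were under 1 FPKM in every library. No Leydig marker rose, 1 fell and 4 were not called. For macrophages 1 rose, 3 fell and 3 were not called, and for endothelium 1 fell and 4 were not called. Of all genes tested 22.7% rose and 23.8% fell. FPKM over all rows summed to 739808 and 742383 in control and to 634962 and 632881 in knockdown, so these sums are not on one common total. The part of fragment length, mitochondrial and ribosomal share and cell types in the results was not tested.

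The replication genes changed in both directions, and every fold change was under 1.5-fold either way. A gene is called where its adjusted p from edgeR's quasi-likelihood test, Benjamini-Hochberg adjusted over 15763 genes, was under 0.05. All 29 passed the count filter, all were at 1 FPKM or more in every library, and the smallest count of any of them was 124. In knockdown 6 rose (MCM3, MCM4, PCNA, RRM2, CCNE2 and E2F8), 7 fell (MCM2, MCM7, GINS2, RFC2, RFC4, FEN1 and TK1) and 16 were not called. That is 44.8% of the members, beside 46.4% of all genes tested; the share called higher was 20.7% beside 22.7%, and the share called lower 24.1% beside 23.8%. The members' shares are near those of all genes, so the count of calls is not a result about replication genes. Their median log2 fold change was 0.02, beside -0.00 for all genes, and their range ran from -0.53 for FEN1 to 0.47 for CCNE2. The median size of a called change was 1.22-fold among the members and 1.24-fold among all called genes. In bulk RNA, a change in the share of cells in S phase and a change of these RNAs per cell cannot be told apart.

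CPM is the count after libraries are brought to one common total, with totals scaled by TMM, edgeR's correction for RNA composition. On that scale both knockdown libraries lay above both control libraries for 11 members and below them for 11, and 7 members overlapped. Among all genes 35.2% lay above and 35.4% below in that way. Among the 13 called members, 4 were called in the same direction under all 15 other ways of processing: MCM4 and PCNA higher, MCM7 and FEN1 lower. The split of calls differed between fits. A limma fit on log2(FPKM + 1) called 3 members higher and 10 lower, with 2038 higher and 3887 lower among all genes. The same fit with the libraries' medians aligned called 5 members higher and 7 lower, with 2669 and 3272 among all genes. Removing a trend of fold change with transcript length gave 8 higher and 5 lower (3144 and 3307 among all genes), and removing trends with length and GC content gave 9 higher and 4 lower, beside 20.3% higher and 20.1% lower of all genes under that last fit.

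**Figure D1:**
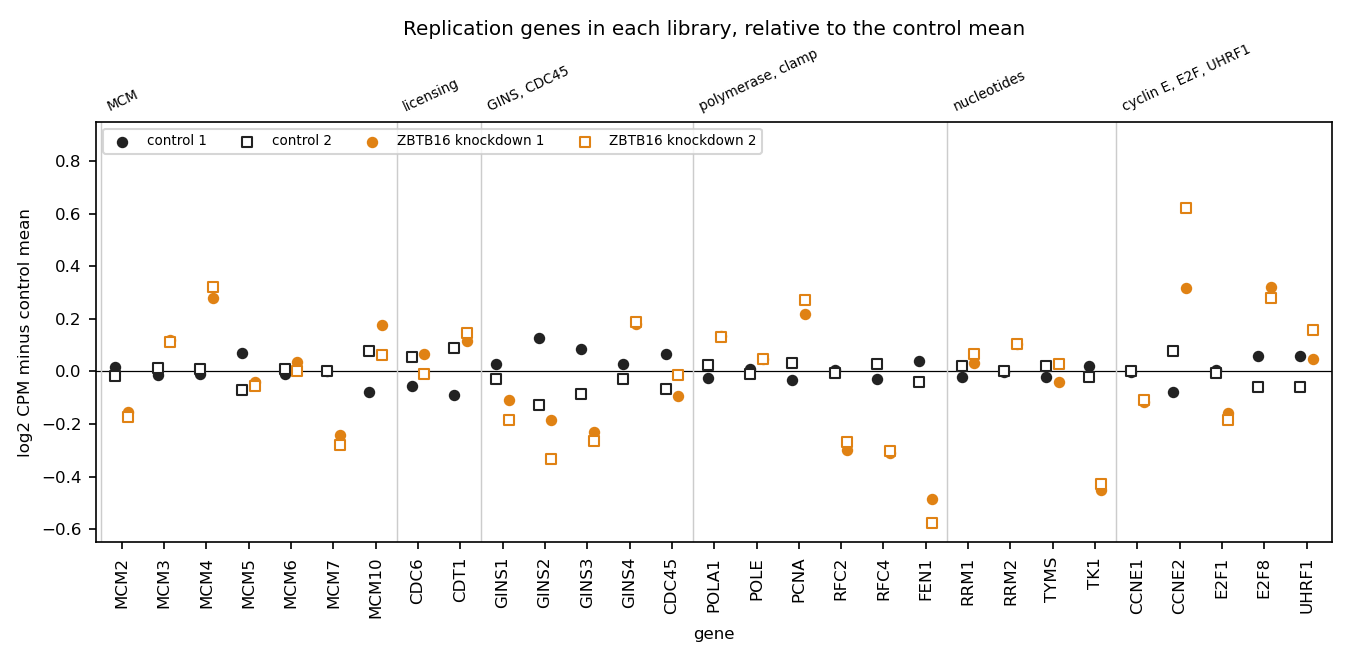
Each point is one gene in one library, as log2 CPM minus the mean of both control libraries (vertical axis, log2 units), with genes in groups by role. Control points (black) lie close to 0, while knockdown points (orange) of FEN1, TK1 and RFC4 lie below them and those of CCNE2, MCM4 and PCNA above them.

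The MCM genes code for the helicase ring, and within this ring subunits moved in opposite directions. MCM4 (chr4:79674737-79686964 in Sscrofa11.1, minus strand) was measured at 75.7 and 76.8 CPM in control and at 92.6 and 95.4 in knockdown. Both knockdown libraries were well above both control libraries, and MCM4 rose 1.23-fold (log2 0.30, SE 0.043, adjusted p = 4.26e-10, edgeR). MCM7 (chr3:8005890-8014047, minus strand) was at 206 CPM in both control libraries and at 174 and 170 in knockdown. The groups were again far apart relative to the spread within them, and MCM7 fell to 0.835 of control (log2 -0.26, SE 0.031, adjusted p = 1.32e-13). MCM7 shares 248 of its 3327 exon bases with AP4M1 on the opposite strand, and whether counting used strand was not given in the sources used here.

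MCM2 was at 86.7 and 84.9 CPM in control and at 77.1 and 76.1 in knockdown. All knockdown values lay below, and MCM2 fell to 0.892 of control (log2 -0.16, adjusted p = 0.000729 with edgeR, 0.0528 with DESeq2). MCM3 was at 59.5 and 60.5 CPM in control and at 65.3 and 64.9 in knockdown. The groups did not overlap, but the gap was small: MCM3 rose 1.09-fold (log2 0.12, adjusted p = 0.0356), and only 4 of the 15 other ways of processing called it. The call was lost when any 1 of the 4 libraries was left out (adjusted p = 0.0778 to 0.206), with DESeq2 (0.239), with limma on FPKM (0.187 and 0.189, and 0.0587 with medians aligned), with library totals only (0.0805), without the count filter (0.0889) and with the length trend removed (0.137).

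MCM5 and MCM6 complete the ring and were not called. MCM5 was at 57.8 and 52.6 CPM in control and at 53.6 and 53.1 in knockdown (fold 0.965, 95% interval 0.900 to 1.04, adjusted p = 0.45). MCM6 was at 121 and 123 CPM in control and at 125 and 122 in knockdown (fold 1.01, 95% interval 0.965 to 1.06, adjusted p = 0.706). Their groups overlapped. MCM10, a separate factor that binds the assembled helicase as it starts to unwind DNA, was at 26.1 and 29.1 CPM in control and at 31.2 and 28.8 in knockdown, also with overlap (log2 0.12, adjusted p = 0.138). MCM10 was at 0.20 (0.0497) without control replicate 2, at 0.042 (0.751) without control replicate 1, at 0.059 (0.639) without knockdown replicate 1 and at -0.0014 (0.99) with the length trend removed.

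Per transcript length, the subunits of the ring differed in level already in control. On the FPKM scale the control means were 83.9 for MCM7, 42.2 for MCM6, 26.4 for MCM4, 23.1 for MCM2, 21.8 for MCM5 and 17.3 for MCM3. The ring holds its subunits in equal number as proteins, which were not measured here. In RNA, the FPKM of MCM7 was 4.84 times that of MCM3 in control (SD 0.069, n = 2) and 3.73 times in knockdown (SD 0.024, n = 2). MCM4 stood to MCM7 as 0.312 and 0.318 to 1 in control and as 0.453 and 0.474 to 1 in knockdown, so the groups were separate. The ratio of MCM2 to MCM4 moved from 0.872 (SD 0.021, n = 2) in control to 0.634 (SD 0.017, n = 2) in knockdown. These ratios combine genes whose changes are given above and carry no further test, since with 2 libraries a group the smallest two-sided p of an exact permutation test is 0.333.

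The licensing factors CDC6 and CDT1, which load the ring at origins, were low in all libraries and were not called. CDC6, an ATPase of the loading step, was at 7.31 and 7.91 CPM in control and at 7.95 and 7.55 in knockdown, with overlapping groups (fold 1.02, 95% interval 0.852 to 1.22, adjusted p = 0.877). At 1.59 to 1.72 FPKM it was the lowest of the 29 per transcript length. CDT1, which carries the MCM ring to the origin and is destroyed in S phase, was at 13.6 and 15.4 CPM in control and at 15.7 and 16.1 in knockdown. Both knockdown values lay above both control values, yet the rise was within the uncertainty of the fit (log2 0.13, adjusted p = 0.263). With the length trend removed CDT1 was at 0.24 (adjusted p = 0.031), with length and GC trends removed at 0.29 (0.00799), without control replicate 1 at 0.039 (0.835) and without control replicate 2 at 0.22 (0.132).

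The 4 GINS subunits and CDC45 join the MCM ring to form the active helicase, and of these 5 genes only GINS2 was called. GINS2 was at 17.3 and 14.5 CPM in control and at 13.9 and 12.6 in knockdown. The groups did not overlap, though the second control library lay closer to the knockdown libraries than to the first, and GINS2 fell to 0.833 of control (log2 -0.26, SE 0.098, adjusted p = 0.0191). Without control replicate 1 its log2 fold change was -0.13 (adjusted p = 0.455), without knockdown replicate 2 it was -0.19 (0.205), and DESeq2 (0.235), limma on FPKM (0.156 and 0.157, and 0.265 with medians aligned) and an offset for effective length (0.0698) did not call it. GINS2 shares 6006 of its 9382 exon bases with GSE1 on the opposite strand, and its counts were not whole in every library, so its value is uncertain.

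GINS3 was at 12.5 and 11.1 CPM in control and at 10.02 and 9.80 in knockdown (log2 -0.25, adjusted p = 0.055). GINS1 was at 20.6 and 19.8 CPM in control and at 18.7 and 17.8 in knockdown (log2 -0.15, adjusted p = 0.151). GINS4 was at 10.6 and 10.2 CPM in control and at 11.8 and 11.9 in knockdown (log2 0.18, adjusted p = 0.174). The groups were separate for each of these 3, low for GINS1 and GINS3 and high for GINS4 in knockdown. GINS1 was called lower by limma on FPKM (0.0147 and 0.0148, and 0.0297 with medians aligned) and with effective length as an offset (0.0481), and was at 0.027 (0.835) with the length trend removed. GINS3 was called lower by limma on FPKM (0.0307 and 0.0302), with library totals only (0.0384) and without control replicate 2 (-0.33, adjusted p = 0.0353), and was at -0.16 (0.398) without control replicate 1 and -0.13 (0.376) with the length trend removed. GINS4 was called higher with the length trend removed (0.30, adjusted p = 0.0207) and with length and GC trends removed (0.31, 0.0167). CDC45 overlapped between groups, at 24.3 and 22.2 CPM in control and at 21.7 and 23.0 in knockdown (fold 0.960, 95% interval 0.864 to 1.07, adjusted p = 0.572).

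Among the polymerase and clamp genes, the clamp rose while the listed loader subunits RFC2 and RFC4 and a nuclease that works on the clamp fell. PCNA (chr17:14137746-14142584, minus strand) was at 70.8 and 74.0 CPM in control and at 84.3 and 87.5 in knockdown. The groups were separate, and PCNA rose 1.19-fold (log2 0.25, SE 0.044, adjusted p = 5.37e-07). PCNA has the shortest transcript of the 29 (1153 bases), and its log2 fold change was 0.44 with the length trend removed (adjusted p = 1.08e-20), 0.41 with length and GC trends removed and 0.13 on log2(FPKM + 1) (adjusted p = 0.043, limma).

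FEN1 (chr2:9752004-9756863, minus strand), the nuclease that trims the 5′ flaps of Okazaki fragments, had the deepest fall of the members. It was at 50.3 and 47.6 CPM in control and at 35.0 and 32.8 in knockdown. The lower control library was far above the higher knockdown library, and FEN1 fell to 0.693 of control (log2 -0.53, SE 0.059, adjusted p = 7.29e-15). It was -0.43 with the length trend removed and -0.37 with length and GC trends removed, and called under both.

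RFC2 and RFC4 are subunits of the clamp loader, whose other subunits were in the wider list described below and are not named there. RFC2 was at 62.7 and 62.1 CPM in control and at 50.8 and 51.9 in knockdown (fold 0.822, log2 -0.28, SE 0.050, adjusted p = 4.61e-07). RFC4 was at 23.7 and 24.6 CPM in control and at 19.5 and 19.6 in knockdown (fold 0.810, log2 -0.30, SE 0.079, adjusted p = 0.000568). In both genes the knockdown libraries lay clearly below. Both transcripts are short, at 1475 and 1395 bases, and both calls were lost with the length trend removed: RFC2 was then at -0.11 (adjusted p = 0.078) and RFC4 at -0.13 (0.199). With length and GC trends removed they were at -0.07 (0.298) and -0.17 (0.0833), and DESeq2 did not call RFC4 either (0.0565).

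The polymerase subunits were not called. POLA1, the catalytic subunit of the polymerase that lays down primers, was at 28.5 and 29.5 CPM in control and at 31.9 and 31.8 in knockdown (log2 0.14, adjusted p = 0.0871, and 0.0449 with effective length as an offset). POLE, the catalytic subunit of the leading strand polymerase, was at 41.7 and 41.1 CPM in control and at 42.8 in both knockdown libraries (fold 1.03, 95% interval 0.956 to 1.12, adjusted p = 0.525). Knockdown values lay just above control values in both. Per transcript length, PCNA was at 3.88 times the FPKM of RFC4 in control (SD 0.080, n = 2) and at 5.59 times in knockdown (SD 0.034, n = 2). Against FEN1 the ratio was 3.27 (SD 0.23) and 5.40 (SD 0.38).

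Nucleotide supply genes make the deoxynucleotides for the fork, and here the thymidine enzymes differed from each other. TK1, which phosphorylates salvaged thymidine, was at 28.1 and 27.4 CPM in control and at 20.3 and 20.6 in knockdown. The groups were far apart, and TK1 fell to 0.737 of control (log2 -0.44, SE 0.075, adjusted p = 1.68e-07). TK1 is both short (1336 bases) and rich in GC (65.6%), and its log2 fold change was -0.26 with the length trend removed (adjusted p = 0.00209) and -0.17, not called, with length and GC trends removed (0.0671). TYMS, which makes the same nucleotide anew from dUMP, was at 96.2 and 99.1 CPM in control and at 94.97 and 99.6 in knockdown, with overlap (log2 -0.01, fold 0.996, 95% interval 0.943 to 1.05, adjusted p = 0.924). With the length trend removed TYMS was at 0.17 (adjusted p = 1.79e-04) and with length and GC trends removed at 0.13 (0.00526), both called higher.

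RRM1 and RRM2 are the large and small subunits of ribonucleotide reductase. RRM2 was at 137 and 138 CPM in control and at 148 in both knockdown libraries. Its counts were not whole in any library, so its value is uncertain. The groups were separate by a small gap, and RRM2 rose 1.07-fold (log2 0.10, SE 0.034, adjusted p = 0.00777). That call was lost with DESeq2 (0.104), with limma on FPKM (0.163 and 0.164), with length and GC trends removed (0.07, adjusted p = 0.093) and without control replicate 1 (0.0755). RRM1 was at 109 and 112 CPM in control and at 114 and 116 in knockdown, just separate (fold 1.03, 95% interval 0.983 to 1.09, adjusted p = 0.295). Per transcript length the RRM2 to RRM1 ratio was 1.16 in control and 1.21 in knockdown (SD 0.019 and 0.022, n = 2 each).

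The last group holds the regulators of S phase entry. CCNE2, a cyclin E that activates CDK2 in late G1, was at 8.98 and 10.02 CPM in control and at 11.8 and 14.6 in knockdown. Both knockdown libraries were higher, but they lay further apart from each other than the control libraries did. CCNE2 rose 1.39-fold, the largest rise of the members in this fit (log2 0.47, SE 0.112, adjusted p = 0.000164), at 0.62 when knockdown replicate 1 was left out and 0.32 when replicate 2 was, and limma on FPKM did not call it (0.0667 and 0.0675). With length and GC trends removed PCNA, at 0.41, rose slightly more than CCNE2, at 0.40. CCNE2 shares 1153 of its 4297 exon bases with INTS8 on the opposite strand, and its counts were not whole in any library, so its value is uncertain. CCNE1, the other cyclin E, was at 15.2 CPM in both control libraries and at 14.1 in both knockdown libraries (log2 -0.11, adjusted p = 0.357). Another row of the tables carries the annotation cyclin-E1, so reads of CCNE1 may be divided between rows and its value is uncertain.

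E2F8, an atypical E2F that represses E2F targets later in S phase, was at 14.6 and 13.4 CPM in control and at 17.5 and 17.0 in knockdown. It rose 1.23-fold with separate groups (log2 0.30, SE 0.093, adjusted p = 0.00451), and the call was lost with DESeq2 (0.117) and without control replicate 2 (0.0774). E2F1, an activator of the same targets, was at 21.0 and 20.8 CPM in control and at 18.7 and 18.4 in knockdown, lower in both knockdown libraries and not called (log2 -0.17, adjusted p = 0.0798, and 0.0224 by limma on log2(FPKM + 1)). UHRF1, which brings the maintenance DNA methyltransferase to replicated DNA, overlapped at 62.0 and 57.3 CPM in control and 61.6 and 66.6 in knockdown (log2 0.10, adjusted p = 0.0882). Leaving out replicate 1 of control or of knockdown gave UHRF1 0.16 (adjusted p = 0.0388) and 0.15 (0.0387), leaving out replicate 2 of either gave 0.045 (0.615) and 0.047 (0.58), and removing length and GC trends gave 0.12 (0.0322).

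Per transcript length the 29 genes spanned a wide range of levels in control, from 87.9 FPKM for PCNA and 83.9 for MCM7 through 79.1 for TYMS and 54.6 for RFC2 down to 2.29 for GINS2 and 1.66 for CDC6. The order was largely kept in knockdown: PCNA stayed first and CDC6 last, MCM4 moved from rank 10 to 8, TK1 from 8 to 11 and FEN1 from 9 to 13. Some neighbours in this order overlapped in control, as the plot of FPKM by library shows: TK1 at 28.0 and 27.3 FPKM with FEN1 at 27.7 and 26.2, MCM2 at 23.3 and 22.8 with RFC4 at 21.8 and 23.5, and MCM10 at 4.44 and 4.94 with E2F8 at 4.54 and 4.17.

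**Figure D2:**
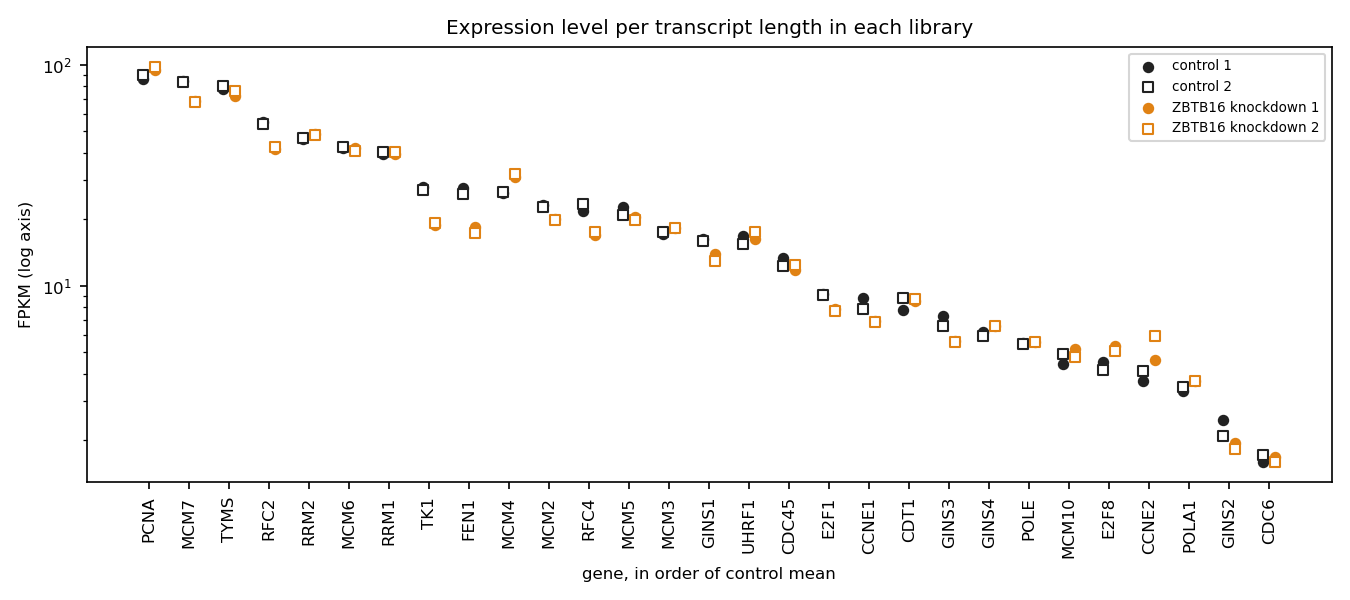
Points give the FPKM (vertical log axis) of each of the 29 genes in each library, with genes in order of the control mean. The order runs from PCNA at 87.9 FPKM to CDC6 at 1.66, and knockdown points of TK1, FEN1, RFC2 and MCM7 lie below their control points.

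Across the 29 genes, fold changes tended to be lower at high GC content and higher in long transcripts, as across all genes. Over the GC classes below the members did not fall steadily, as their middle class had the highest median. Spearman's rho of the log2 fold change with the GC content of exons was -0.42 over the 29 members and -0.26 over 15266 genes, and with transcript length 0.32 and 0.37. These are descriptions across genes, which share libraries and are not replicates. Of the 10 members with the highest GC content (56.9% to 68.9%), none was called higher, 6 were called lower and the median log2 fold change was -0.22. Of 4573 genes in the same GC range 14.4% were called higher and 34.6% lower (median -0.12). The cut falls between RFC2 at 56.86%, called lower, and MCM4 at 56.85%, called higher, so the absence of a higher call depends on where it is placed. The middle 9 had 4 called higher and none lower (median 0.10), beside 734 and 1037 of 3873 genes in their range, and the 10 of lowest GC (39.4% to 48.3%) had 2 higher and 1 lower (median 0.04), beside 27.6% and 15.7%. By length, the 10 shortest members had 1 higher and 3 lower (median -0.10), beside 9.5% and 40.6% of all genes in their range, and the 10 longest 3 higher and 2 lower (median 0.10), beside 32.0% and 11.6%. With both trends removed, MCM3, MCM4, PCNA, CCNE2 and E2F8 were still called higher, and MCM2, MCM7, GINS2 and FEN1 lower. The calls of RFC2, RFC4, RRM2 and TK1 were lost. Mean fragment length differed between the groups as given above, and its part in these trends was not tested.

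**Figure D3:**
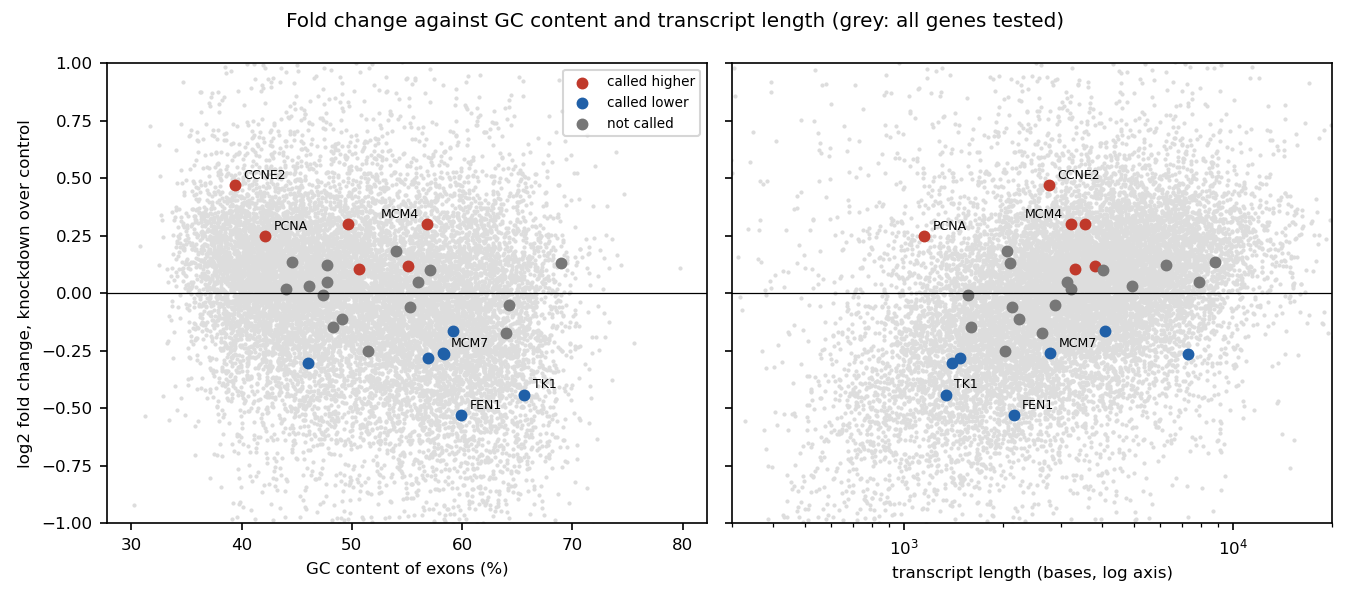
The log2 fold change (vertical axis) is plotted against the GC content of exons in percent (left) and transcript length in bases on a log axis (right), with 15266 genes in the left panel in light grey, the 29 members in colour by call, and 495 genes beyond 1 in either direction not drawn. Of the 10 members of highest GC 6 were called lower and none higher, with MCM4, called higher, just outside them.

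**Figure D4:**
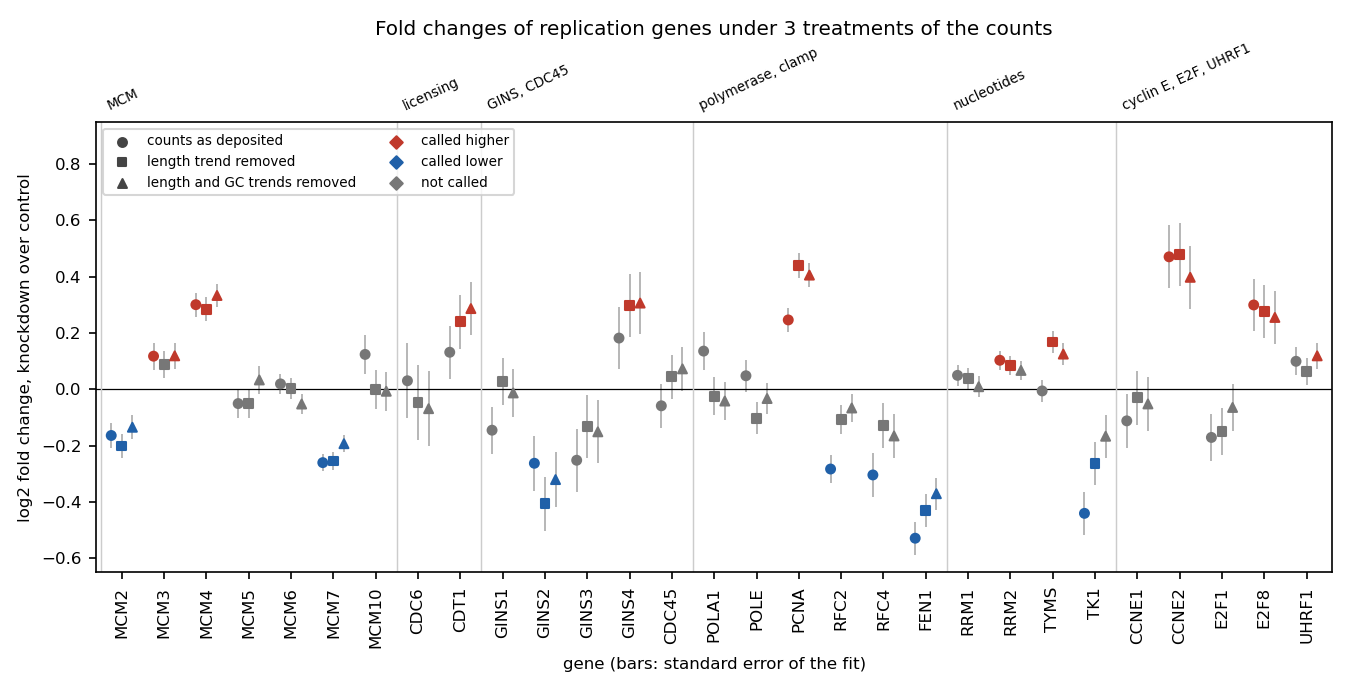
The log2 fold change of each gene with its standard error (bars) is shown from counts as deposited (circles), with the length trend removed (squares) and with length and GC trends removed (triangles), coloured by call. MCM4, PCNA, CCNE2 and E2F8 above 0 and MCM2, MCM7, GINS2 and FEN1 below 0 keep their side and call in all 3 fits. With length and GC trends removed, RFC2 and RFC4 move to -0.07 and -0.17 and TYMS moves from -0.01 to 0.13.

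E2F factors bind many promoters of this kind, and the sequence upstream of the RefSeq gene starts (Sscrofa11.1) was read for their words. The window ran from 250 bases before to 50 bases after the start. Words of 8 letters were TTTCCCGC, TTTCGCGC, TTTGCCGC and TTTGGCGC, and words of 7 letters were the same without the first T. Both were searched on both strands, and each 8-letter word holds a 7-letter one. Words of 7 letters were in 11 of the 29 windows (37.9%), beside 13.1% of 20664 protein-coding genes and 16.3% of the 14492 of them that were tested. Words of 8 letters were in 6 (20.7%), beside 3.24% and 4.09%, and CCAAT, the word of the factor NF-Y, was in 18 (62.1%), beside 35.7% and 35.4%. Members with and without a word were called in both directions: of the 11 with a 7-letter word 2 rose, 3 fell and 6 were not called, and of the 18 without one 4 rose, 4 fell and 10 were not called. The genes with an 8-letter word were MCM3, MCM6, CDT1, POLA1, POLE and TYMS, of which only MCM3 was called, higher. A match describes letters and is not a bound site. Each gene was read at its annotated start only, and the starts used in these cells were not measured. A gene without a word here may hold one near another start.

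The 250 bases before the start are shown for 6 genes, 5′ to 3′ on the gene's strand with 7-letter words in capitals: the 4 whose calls held under every alternative run, and MCM6 and POLE, which hold words and were not called. The stretches are chr4:79686965-79687214 (minus) for MCM4, chr17:14142585-14142834 (minus) for PCNA, chr3:8014048-8014297 (minus) for MCM7, chr2:9756864-9757113 (minus) for FEN1, chr15:15923388-15923637 (plus) for MCM6 and chr14:22797896-22798145 (plus) for POLE. In MCM6 overlapping words form a pair at bases -127 and -124 and again at -65 and -62, and in POLE they begin at -232, -107 and -8. FEN1 has 1 word, at -80, and MCM4, PCNA and MCM7 have none in the window.
MCM4: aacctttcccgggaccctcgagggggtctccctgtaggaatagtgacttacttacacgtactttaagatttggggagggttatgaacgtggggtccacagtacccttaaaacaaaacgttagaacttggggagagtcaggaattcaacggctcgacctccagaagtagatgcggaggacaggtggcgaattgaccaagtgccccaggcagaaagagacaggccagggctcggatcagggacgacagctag
PCNA: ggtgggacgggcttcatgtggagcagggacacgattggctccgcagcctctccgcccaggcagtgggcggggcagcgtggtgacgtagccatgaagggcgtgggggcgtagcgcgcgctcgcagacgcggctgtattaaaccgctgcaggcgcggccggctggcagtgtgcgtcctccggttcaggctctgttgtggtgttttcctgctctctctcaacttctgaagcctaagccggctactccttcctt
MCM7: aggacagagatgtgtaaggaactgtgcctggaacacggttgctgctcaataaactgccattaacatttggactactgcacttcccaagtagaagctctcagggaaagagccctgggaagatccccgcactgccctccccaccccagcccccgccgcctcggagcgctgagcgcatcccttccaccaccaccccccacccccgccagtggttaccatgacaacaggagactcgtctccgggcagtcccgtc
FEN1: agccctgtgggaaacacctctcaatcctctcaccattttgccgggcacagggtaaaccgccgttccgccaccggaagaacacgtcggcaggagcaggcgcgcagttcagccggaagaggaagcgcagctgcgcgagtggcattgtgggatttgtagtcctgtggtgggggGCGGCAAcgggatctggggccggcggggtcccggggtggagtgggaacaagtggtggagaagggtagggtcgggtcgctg
MCM6: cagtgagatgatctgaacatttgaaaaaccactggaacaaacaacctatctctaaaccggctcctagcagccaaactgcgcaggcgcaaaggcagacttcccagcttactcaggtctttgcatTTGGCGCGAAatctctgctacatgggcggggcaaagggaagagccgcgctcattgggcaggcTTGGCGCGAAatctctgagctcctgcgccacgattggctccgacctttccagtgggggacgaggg
POLE: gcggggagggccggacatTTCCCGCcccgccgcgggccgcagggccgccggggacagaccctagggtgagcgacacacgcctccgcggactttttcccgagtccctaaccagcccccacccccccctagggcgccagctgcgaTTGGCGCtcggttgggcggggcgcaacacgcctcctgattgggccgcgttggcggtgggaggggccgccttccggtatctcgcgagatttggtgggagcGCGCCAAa

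Other genes of replication were given by a wider list of 62 names, of which 61 were in the tables and tested. Of these 16 rose, 19 fell and 26 were not called, with a median log2 fold change of 0.05, so both directions were again present. All genes tested had 22.7% called higher and 23.8% lower. Origin recognition subunits ORC3 and ORC1 rose, by log2 0.43 (adjusted p = 5.7e-08) and 0.30 (8.83e-05), as did FBXO5, an inhibitor of the anaphase promoting complex, by 0.73 (2.77e-10). MCM9, a helicase of repair, was at 0.42 (0.00286) and E2F7, the partner of E2F8, at 0.36 (0.00206). DESeq2, limma on FPKM and the length trend removed ended the calls of MCM9 (0.0946, 0.087 and 0.0551) and of E2F7 (0.0837, 0.0755 and 0.0546), and E2F7 also lost its call without knockdown replicate 2 (0.0549). The 5 deepest falls were in transcripts of 700 to 1068 bases that code for nucleotide enzymes and fork proteins: DTYMK, the thymidylate kinase that acts after TK1 and TYMS, at -1.29 (1.48e-12), DCTPP1 at -0.85 (2.5e-14), POLD4 at -0.54 (2.06e-06), RPA3 at -0.50 (1.22e-08) and DUT, which makes the dUMP used by TYMS, at -0.43 (8.45e-13). With length and GC trends removed, DTYMK was at -0.83, DCTPP1 at -0.38 and RPA3 at -0.21, all still called, while POLD4 was at -0.21 (0.0893) and DUT at 0.02 (0.761). The list then had 11 higher and 10 lower, beside 20.3% and 20.1% of all genes.

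Genes on either side of S phase were compared in the same fit. Of 14 G1 control genes tested 5 rose, 3 fell and 6 were not called (median log2 -0.05, but 0.10 with the length trend removed and 0.05 with length and GC trends removed, where 5 were called higher and 2 lower). The retinoblastoma family members RBL1 and RB1, which hold E2F in check, rose by log2 0.38 (adjusted p = 1.19e-08) and 0.36 (7.87e-07), and CDK6, a cyclin D kinase with a transcript far longer than those of the members, by 0.31 (2.01e-09). With length and GC trends removed RBL1 was at 0.24 (adjusted p = 0.000272), still called, and CDK6 at 0.08 (0.145). Of 28 G2/M genes 14 rose, 2 fell and 12 were not called (median 0.16), against 6, 7 and 16 of the replication genes. Among all genes tested 22.7% were called higher and 23.8% lower. TOP2A, the topoisomerase that untangles sister DNA, rose by log2 0.32 (2.92e-16) and the proliferation marker MKI67 by 0.34 (5.35e-14), while the spindle checkpoint gene MAD2L1 fell by 0.46 (5.15e-13). With length and GC trends removed the G2/M list had 13 higher and 2 lower, beside 20.3% and 20.1% of all genes, and TOP2A was at 0.15. The difference between the G2/M list and the replication genes was not tested.

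**Figure D5:**
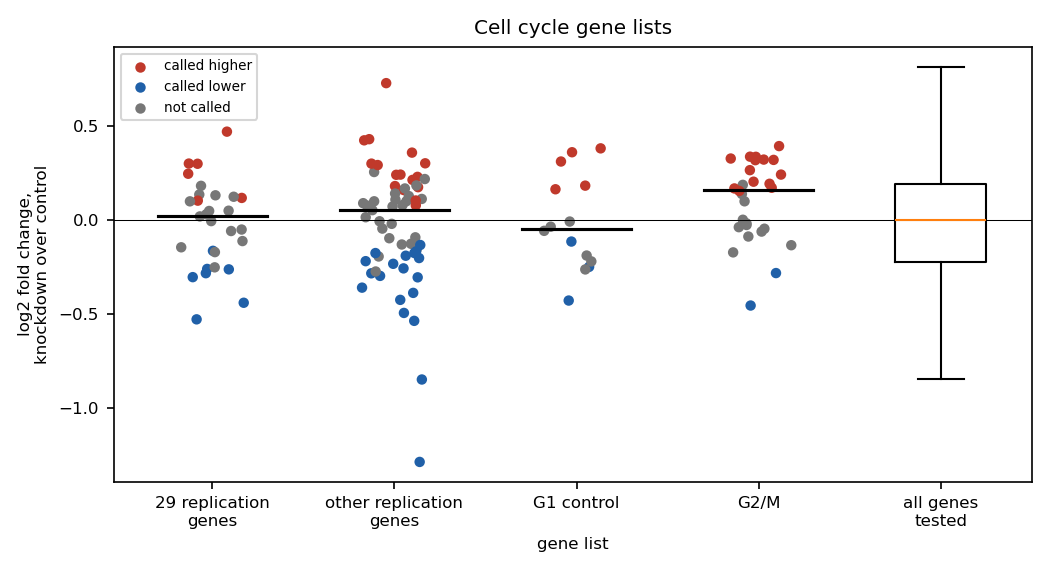
Points are genes of 4 lists by log2 fold change (vertical axis), coloured by call, with a line at the list's median; the box gives the quartiles of all 15763 genes, with whiskers to 1.5 times the box height. The medians are 0.02 for the 29 replication genes, 0.05 for other replication genes, -0.05 for G1 control and 0.16 for G2/M genes.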

How the data were processed

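Pig cells labelled immature spermatogonia were profiled by mRNA sequencing on an MGI platform. Per the labels' protocols, the authors filtered reads with SOAPnuke 2.1.0, aligned them to Sscrofa 11.1 with HISAT2 2.2.1, mapped them to transcripts with bowtie2 2.3.5 and quantified genes with RSEM 1.3.3. The deposited tables give expected counts per gene, FPKM and TPM, with transcript length and effective length as the authors' other columns. Rows whose reads RSEM divides between transcripts hold fractions; 24 of the 29 members had whole counts (within 0.005) in every library. TPM was not used. A strand setting was not given in the sources used here.

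Expected counts were rounded and tested with edgeR 4.0.16 (R 4.3.3): filterByExpr (minimum count 10, minimum total 15), TMM scaling, quasi-likelihood F-test and Benjamini-Hochberg adjustment over 15763 genes. The standard error given with edgeR was the size of the log2 fold change divided by the square root of its F statistic. The 95% intervals were taken from it with a normal approximation. Levels between genes were compared in FPKM. Depth limits precision through counting error, which the fit includes; p-values rest on how these libraries vary among themselves, and that variation may be technical. Alternatives were DESeq2 1.42.0, other scalings, no count filter, limma 3.58.1 on log2(FPKM + 1) and log2(FPKM + 0.1) for genes at 1 FPKM or more in at least 2 libraries, effective length as an offset, removal of a length trend (mgcv 1.9.3), a replicate block and leaving out each library. Removal of length and GC trends together, and FPKM with medians aligned, were added after seeing the data. Of the tests only edgeR's was run on simulated data, and the outcome is not given here. Members and lists were chosen with earlier results of these data known. Every member was named; from the wider replication list the 5 largest rises and falls, and from the G1 and G2/M lists the 3 smallest p-values, at a mean of at least 1 FPKM. Gene positions and GC content came from the RefSeq annotation of Sscrofa11.1.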

Additional observations from a re-analysis of the deposited data

How the results depend on the processing

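DESeq2 called 4452 of all genes (2168 higher and 2284 lower), against 7319 with edgeR, and 3 members higher and 4 lower. Limma called 3 members higher with either pseudocount, and removing length and GC trends left 4 lower. The members' median log2 fold change was 0.0013 with library totals only, -0.029 with limma at either pseudocount, -0.0014 with the length trend removed, -0.013 with length and GC trends removed, and -0.00096 to 0.036 when 1 library was left out. With 1 library left out a group holds a single library, so the numbers of genes called in each of those fits are not given. Those fits are among the 15 other ways of processing under which the members' calls were followed. In 9 members, none of the 13 called, the sign differed in at least 1 alternative: MCM5, MCM6, MCM10, CDC6, GINS1, CDC45, POLA1, POLE and TYMS. That held for 7 of them with the length trend removed and 8 with length and GC trends removed. TYMS alone was called with the other sign, at 0.17 and 0.13 in these fits. Whether equal replicate numbers mark the same experiment was not given in the sources used here. The correlation of replicate 1 minus 2 deviations between groups was 0.00036. It cannot decide this, since libraries of a group differed little more than by counting noise. A paired fit with a replicate block called 6 members higher and 7 lower, and 7480 of all genes (3674 higher and 3806 lower). Where an alternative ended a call, the cause was not tested.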
